A study of Mus musculus with 21 samples.

Results

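Fibroblasts from embryos of the germline Prrx1 mutant mouse were compared with wild-type (WT) fibroblasts by bulk RNA-seq. The comparison took the mouse embryonic fibroblast (MEF) cultures labelled KI_PRRX1 (3 cultures, Prrx1 mutant MEF) and WT_PRRX1 (3 cultures, WT MEF), which are 6 of the 21 cultures of the series, with all 24532 genes of the MEF count table. Mutant MEF came from the strain 129S-Prrx1tm1Jfm/Mmmh, in which LacZ is inserted in frame into the homeodomain coding part of Prrx1 exon 2, and the labels give C57BL/6 as the strain of both groups. Embryos were harvested between days 10 and 13 of gestation, and the cells of both groups were immortalised with HPV E6/E7 and grown in the same serum-containing medium. The labels state neither the zygosity nor the sex of the embryos, nor whether the 3 cultures of a genotype came from separate embryos or from 1 immortalised line, so the p-values measure only the spread between these cultures, and differences between lines cannot be told apart from differences between genotypes. The labels also name a non-targeting guide, sgNS, as the control of guide-edited cells and do not say whether the WT MEF carried it. For a part of the description, mutant MEF were set beside 3 MEF cultures labelled SG_PRRX1, which carried a CRISPR/Cas9 guide against Prrx1.

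Prrx1 encodes a paired-related homeodomain transcription factor of the mesenchyme, best known from the developing limb bud, the craniofacial mesenchyme and connective tissue progenitors. Homeodomain factors read short AT-rich motifs and, with Hox, T-box, Pitx, Alx and Meis proteins, belong to the network that gives mesenchymal cells their place along the body and the limb. Fibroblasts keep much of this positional pattern in culture, and they are the main source of collagens, proteoglycans and other matrix proteins. In cells of mice with such a mutation, the comparison with WT cells asks which genes differ in level when Prrx1 has been defective from the start of development.

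Total counts were between 71250774 and 88418420 per culture over the 6 cultures. Levels are given as CPM, counts scaled to a common library size with TMM factors, which are not corrected for gene length and so are compared between cultures and not between genes. A gene was called lower or higher in mutant MEF at an adjusted p under 0.05 (edgeR's quasi-likelihood test, Benjamini-Hochberg adjustment over all genes tested), and "fell" and "rose" are used only of such genes. Of 13616 genes tested, 8155 were called, which is 59.9%. Those lower made up 30.5% of the genes tested (4148) and those higher 29.4% (4007), and at a change of at least 2-fold the shares were 14.5% lower (1970 genes) and 9.64% higher (1313 genes). With so large a background, a list of genes is described below by its counts and median beside these shares, and the median log2 fold change over all genes tested was 0.01 with quartiles of −0.56 and 0.50. The first principal component held 86.2% of the variance of log2 CPM and separated the genotypes. Spearman correlations of cultures, over genes, were 0.987 to 0.995 within a group and 0.912 to 0.941 between groups.

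The fibroblast label was checked against 11 marker genes. Of these, 9 had enough counts to be tested, each of the 9 was lower in mutant MEF (median log2 fold change −1.63), and Lum and Fap were at or near 0 in all 6 cultures. The 11 marker genes summed to 12386 to 12797 CPM in WT and 5577 to 6630 CPM in mutant cultures. Vim, the intermediate filament of mesenchymal cells, stayed abundant in both groups at 5119, 5197 and 4632 CPM in WT and 2325, 2720 and 3108 CPM in mutant replicates 1, 2 and 3. The defining epithelial marker Epcam had 0 counts in every culture. Of the 9 epithelial markers 5 were tested, and 3 rose and 2 fell. Krt19 rose from 11.6, 12.7 and 12 to 193, 214 and 227 CPM (log2 fold change 4.12 ± 0.10, SE), and Krt8 and Krt18 rose but stayed under 0.7 CPM. Krt14 went from 6.07, 6.4 and 4.87 CPM to 0 counts in all mutant cultures. Cdh1, the epithelial cadherin gene, had raw counts of 40, 27 and 47 in WT and 0, 0 and 4 in mutant cultures. The 6 skeletal muscle markers summed to under 0.1 CPM in each culture, endothelial markers to under 5.2 CPM, and blood cell markers to 14.7 to 17.2 CPM in WT and 19.9 to 21.4 CPM in mutant cultures, most of it Cd14. In bulk cultures, fewer cells of a type and less RNA per cell cannot be told apart, and the part of these markers in the results below was not tested.

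Prrx1 itself lies on chromosome 1, at 1:163245119-163315145 on the minus strand in GRCm38.p6 (RefSeq), the assembly also named mm10. Its levels were 190, 163 and 179 CPM in WT replicates 1, 2 and 3 and 25.7, 19.9 and 18.9 CPM in the mutant cultures, so the groups did not overlap and transcript remained in each mutant culture (log2 fold change −3.04 ± 0.14, SE, adjusted p = 6.83e-06). The inserted LacZ is no gene of the mouse annotation and was not counted. Prrx2, the paralogue that shares the homeodomain and much of the expression pattern of Prrx1 in the embryo, was at 103, 105 and 103 CPM in WT and 64.3, 75.7 and 82.3 CPM in mutant cultures. All 3 mutant cultures were below all WT cultures, and the fall was 0.49 on the log2 scale (SE 0.10, adjusted p = 0.00548).

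The 10 protein-coding genes on each side of Prrx1 on the chromosome were read as well. Of these 20 neighbours, 10 were tested, and among them Vamp4, Fmo1, BC055324, Mettl18 and Selp rose and none fell, while Prrc2c, Gorab, Kifap3, Scyl3 and Sele did not pass the test. Selp, the adhesion receptor P-selectin, which lies 800 kb from Prrx1, was at 0.315, 0.269 and 0.695 CPM in WT and 6.70, 8.59 and 8.19 CPM in mutant cultures (log2 fold change 4.16 ± 0.35, SE). Fmo1, a flavin monooxygenase gene 379 kb away, rose by 6.38 on the log2 scale from at most 0.0448 CPM to 1.5, 1.56 and 1.62 CPM, and the other neighbours that rose changed by 0.51 to 1.37. The call of Vamp4 was lost when 1 of 4 cultures was left out.

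Promoter windows of the genes that moved were read for TAATTA, the palindromic core that many paired-class homeodomain proteins bind. Each window covers 250 bases before and 50 bases after a RefSeq transcription start in GRCm38.p6, and a first window was found for 10298 of the 13616 genes tested. TAATTA, which reads the same on both strands, was in 2.19% of the windows of genes at least 2-fold lower (31 of 1413). The share was 2.92% for genes at least 2-fold higher (28 of 958) and 2.76% for genes not called (113 of 4101). Over all genes tested it was 2.37% (244 of 10298). Over all 27025 windows of the reference, which include genes not tested, it was 5.31%. The share was thus low in each class and near that of all genes tested, and a match is a string of letters and not a bound site. Among the 15 genes of each direction that changed most, described next, 6 lower and 11 higher genes had a window, and the motif was in 1 of them, that of Hoxd11. Windows are shown for Prrx1, at 1:163313601-163313900 on the minus strand, and for Hoxd11, at 2:74679308-74679607 on the plus strand. Both genes changed, and both windows hold the motif, 173 and 81 bases before the transcription start that the window was built on. For Prrx1 this window lies inside the gene span given above, so its start is not at the outer 5′ end of the gene. Both windows are written 5′ to 3′ on the strand of the gene, with TAATTA in capitals.
Prrx1: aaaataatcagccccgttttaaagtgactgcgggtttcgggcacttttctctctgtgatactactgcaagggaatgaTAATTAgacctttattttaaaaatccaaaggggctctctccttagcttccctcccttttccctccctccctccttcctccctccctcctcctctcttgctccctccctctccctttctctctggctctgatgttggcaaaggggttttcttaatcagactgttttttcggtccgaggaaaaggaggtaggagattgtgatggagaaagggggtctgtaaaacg
Hoxd11: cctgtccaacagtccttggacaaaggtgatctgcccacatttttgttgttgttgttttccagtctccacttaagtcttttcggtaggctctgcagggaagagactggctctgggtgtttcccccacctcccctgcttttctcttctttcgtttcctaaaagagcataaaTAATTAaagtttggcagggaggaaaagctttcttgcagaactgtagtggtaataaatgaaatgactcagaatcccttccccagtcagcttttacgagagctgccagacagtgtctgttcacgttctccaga

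The largest losses in mutant MEF were of genes that WT cultures transcribed at moderate levels and mutant cultures did not transcribe at a level these libraries could detect. Of the 15 lower genes with the largest change, 7 had 0 counts in all 3 mutant cultures. Pitx1, the homeodomain factor that specifies hindlimb identity, was at 19.7, 20 and 26.5 CPM in WT, which makes it at least 1754-fold lower when 3 counts over the mutant group are taken as the floor. On the same floor Ptprz1, a receptor tyrosine phosphatase of glia, was at least 2207-fold lower, and Ecscr, a small membrane protein known from endothelial cells, 1686-fold. Ldb2, a cofactor of LIM homeodomain proteins, was at least 1374-fold lower and the matrix proteoglycan Prelp 1250-fold. The remaining genes of this group kept traces of counts. Plac8 fell from 180, 173 and 147 to 0.253, 0.341 and 0.210 CPM (log2 fold change −9.25 ± 0.19, SE), and the transcription factor Sim2 from 32.1, 30.1 and 28.8 to 0, 0.0341 and 0 CPM. Gfra2, a receptor of the GDNF family, Dynap, Ranbp3l, Asb2 and the Y-linked demethylase gene Kdm5d fell by 8.53 to 10.12 on the log2 scale. Pcdhga10 fell by 10.62 from 42.6, 41.7 and 43.0 CPM, but its gene shares its 3′ exons with the other gamma protocadherins, so the division of reads among them is uncertain.

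Among the 15 higher genes with the largest change, 7 encode transcription factors or a cofactor of development. Sall1, a zinc finger factor of limb and kidney, had 0 counts in each WT culture and 51.7, 49.0 and 50.8 CPM in mutant cultures, at least 3866-fold higher. Tbx4, the T-box factor of the hindlimb, was likewise at 0 in WT and at 23.5, 29.5 and 33.1 CPM in mutant cultures, at least 2198-fold higher. Eya2, a transcriptional cofactor of organ development, was at least 1612-fold higher, Hoxd11 1044-fold, the pluripotency and neural factor Sox2 1016-fold, the retinol carrier gene Rbp4 848-fold, Fndc3c1 3597-fold and the interferon-inducible Ifi202b 1448-fold. Outside the factors, Ptprd, a receptor phosphatase, went from at most 0.0897 CPM in WT to 28.9, 28.9 and 28.6 CPM, and Ripk4, a kinase of epidermal differentiation, from at most 0.0859 to 24.4, 31.6 and 36.6 CPM. Megf6 rose by 9.21 on the log2 scale, and the neutrophil chemokine gene Cxcl5 by 9.16, to 18.7, 16.2 and 12.1 CPM.

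Transcription factors of the limb and the face moved in both directions. Of 38 listed, 25 were tested, 9 fell and 12 rose, with a median log2 fold change of 0.36. Alx1 and Alx4, paired-class factors of the frontonasal mesenchyme and the limb, had 10.4, 9.96 and 8.71 CPM and 3.55, 3.11 and 3.69 CPM in WT and 0 counts in each mutant culture, at least 771-fold and 274-fold lower. Meis1 and Meis2, homeodomain cofactors of Hox proteins that mark the proximal limb, fell together. Meis1 was at 69.0, 67.9 and 59.8 CPM in WT and 6.97, 6.95 and 7.34 CPM in mutant cultures (log2 fold change −3.21 ± 0.10, SE, adjusted p = 1.80e-06). Meis2 went from 134, 139 and 97.5 to 20.3, 20.8 and 21.6 CPM (log2 fold change −2.56 ± 0.15, SE, adjusted p = 1.51e-05). Neither gene had a mutant culture that came near a WT culture. Pax9, a factor of pharyngeal and sclerotome mesenchyme, rose from 0.143, 0.297 and 0.381 to 39.4, 43.1 and 46.3 CPM (log2 fold change 7.26 ± 0.28, SE), and Irx3, a factor of the anterior limb, from 1.27, 0.509 and 0.706 to 12, 11.2 and 11.9 CPM. The related Irx1, named after its values were seen, fell from 36.2, 38.9 and 34.2 to 16.4, 15.7 and 17.4 CPM. Pax3, at 0 counts in WT, was found at 1.03 to 1.41 CPM in mutant cultures. Msx1, a homeodomain factor of the distal limb, rose by 2.07.

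Among factors of general mesenchyme, 10 of the 25 tested fell and 12 rose (28 listed, median log2 fold change 0.18), Prrx1 and Prrx2 counted among those that fell. Tbx15, a T-box factor of trunk and limb mesenchyme, was at 30.5, 27.3 and 23.7 CPM in WT and 241, 247 and 250 CPM in mutant cultures (log2 fold change 3.18 ± 0.11, SE, adjusted p = 2.51e-06). Forkhead factors differed in direction. Foxc1 rose from 7.87, 8.76 and 8.54 to 79.5, 64.0 and 62.9 CPM, Foxc2 rose by 2.57 and Foxd1 by 2.98 on the log2 scale, while Foxf1, a target of Hedgehog signalling, fell from 32.3, 32.8 and 33.0 to 8.31, 7.61 and 7.52 CPM. Klf4, a zinc finger factor that restrains proliferation, fell from 109, 114 and 134 to 14.2, 15 and 13.8 CPM (log2 fold change −3.06 ± 0.10, SE). Hic1, a repressor that marks quiescent mesenchymal progenitors, fell by 2.26. The early B-cell factors Ebf1 and Ebf2, both known from adipocyte and bone lineages, changed in opposite directions. Ebf1 rose from 8.22, 7.47 and 7.04 to 34.5, 28.8 and 32.6 CPM, and Ebf2 fell from 3.98, 4.41 and 4.63 to at most 0.0419 CPM. Twist1, a bHLH factor of mesenchyme, was among the small changes, with 54.5, 55.3 and 53.5 CPM in WT and 41.7, 37.8 and 46.2 CPM in mutant cultures (log2 fold change −0.38 ± 0.09, SE, adjusted p = 0.0102). Snai2 and Twist2 did not pass the test.

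**Figure D1:**
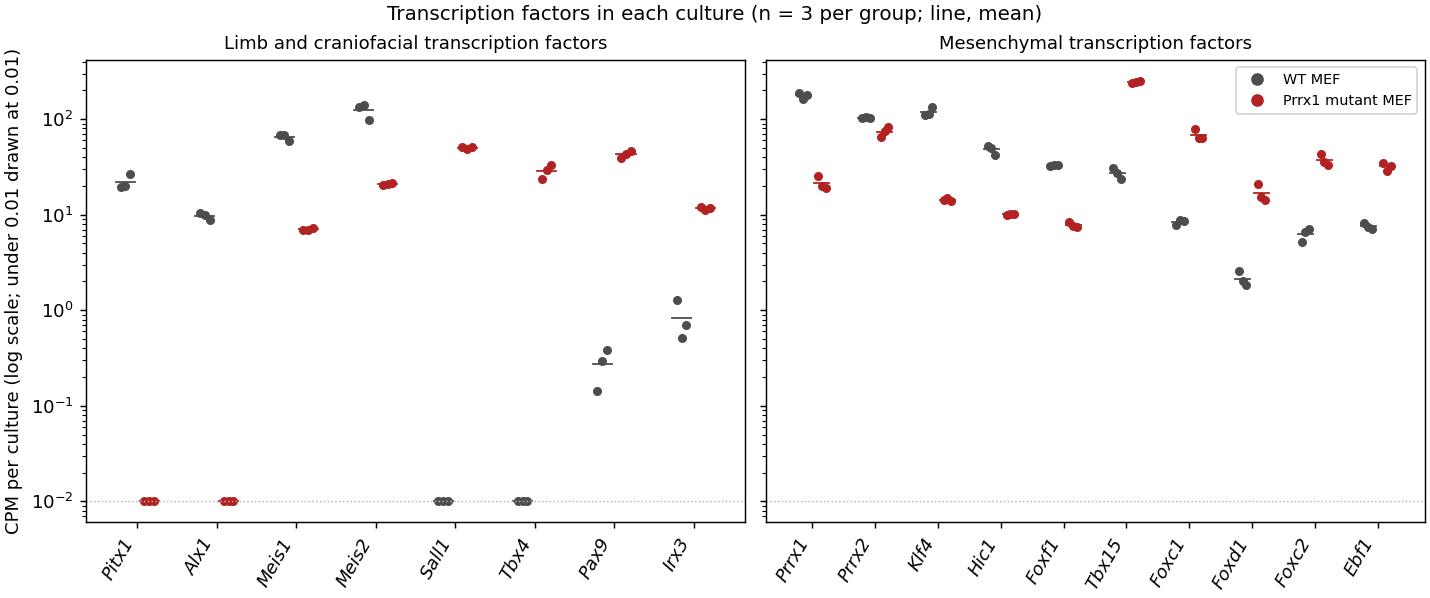
CPM of transcription factor genes on a log scale in each culture, with WT MEF in grey and Prrx1 mutant MEF in red, points for the 3 cultures per group, lines for means, and values under 0.01 drawn at 0.01. Pitx1 and Alx1 sit at 0 counts in all mutant cultures and Sall1 and Tbx4 in all WT cultures, while Tbx15 is at 23.7 to 30.5 CPM in WT and 241 to 250 CPM in mutant cultures.

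Hox genes, which mark position along the body axis and the limb, differed by cluster and by position in the cluster. Of 39 listed, 36 were tested, 21 fell and 9 rose, and the median log2 fold change was −0.95. The HoxB and HoxC genes that were called all fell. Hoxc8 went from 64.2, 55.3 and 47.1 to 4.31, 3.66 and 3.33 CPM (log2 fold change −3.88 ± 0.16, SE, adjusted p = 4.79e-06). Hoxc6 went from 37.4, 41.2 and 45.1 to 4.46, 5.07 and 3.93 CPM, Hoxb9 fell by 3.53 and Hoxc5 by 4.04. These named genes belong to the trunk part of the axis, but the most posterior HoxB and HoxC genes were lower as well. Raw counts of Hoxb13 were 22, 12 and 34 in WT and 0 in each mutant culture. Those of Hoxc12 were 21, 25 and 18 in WT and 0 in each mutant culture. Hoxc13 had 41, 26 and 72 in WT and 6, 8 and 0 in mutant cultures. The 5′ genes of HoxA and HoxD, which pattern the distal limb and the posterior axis, all rose from next to nothing. Hoxd13 had 0.100, 0 and 0 CPM in WT and 128, 111 and 115 CPM in mutant cultures (log2 fold change 11.84 ± 0.50, SE, adjusted p = 4.67e-06). Hoxd11 was at 14.6, 12.7 and 13.6 CPM, Hoxd12 at 5.21, 3.20 and 3.97 CPM and Hoxa13 at 4.97, 4.16 and 3.87 CPM in mutant cultures, each with 0 counts in every WT culture. In the middle of these clusters the rise was smaller. Hoxa10 rose from 0.988, 0.425 and 0.706 to 34.5, 19.6 and 14.3 CPM (log2 fold change 5.01 ± 0.44, SE), Hoxa9 by 4.33 and Hoxd10 by 5.39. Hoxd9 did not pass the test, and Hoxd3 and Hoxd4 fell. Hoxa11 rose to 43.7, 31.3 and 23.5 CPM and Hoxa11os to 17.1, 12.1 and 9.24 CPM. The latter is transcribed antisense to Hoxa11, and without stated strand settings their reads cannot be told apart. In each of Hoxa9, Hoxa10 and Hoxa11, replicate 1 was the highest of the mutant cultures.

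**Figure D2:**
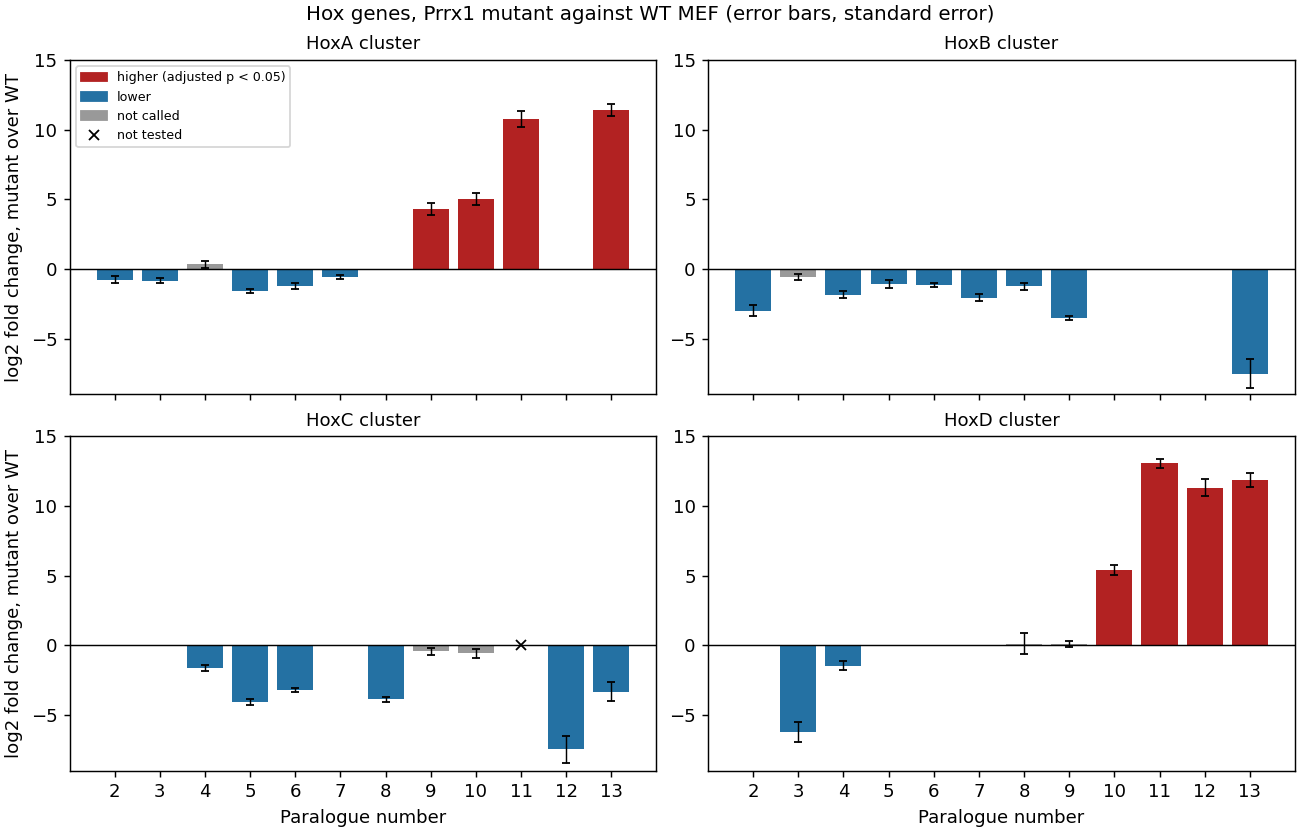
Log2 fold change of Hox genes in Prrx1 mutant over WT MEF by paralogue number, from 2 up, in each cluster, with standard errors, where red bars were called higher, blue bars lower and grey bars not called, crosses mark genes listed but not tested, and gaps are paralogues that do not exist or are not shown. Red bars stand at Hoxa9 to Hoxa13 and at Hoxd10 to Hoxd13, and the called genes of HoxB and HoxC all point down. Bars of genes with 0 counts in WT depend on the small count that the fit adds.

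The lists of other functions differed in their balance. The plot of list shares shows that matrix, growth factor, interferon and imprinted gene lists leaned to lower levels, and that cell cycle and cartilage lists leaned to higher ones, beside 30.5% lower and 29.4% higher of all genes tested.

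**Figure D3:**
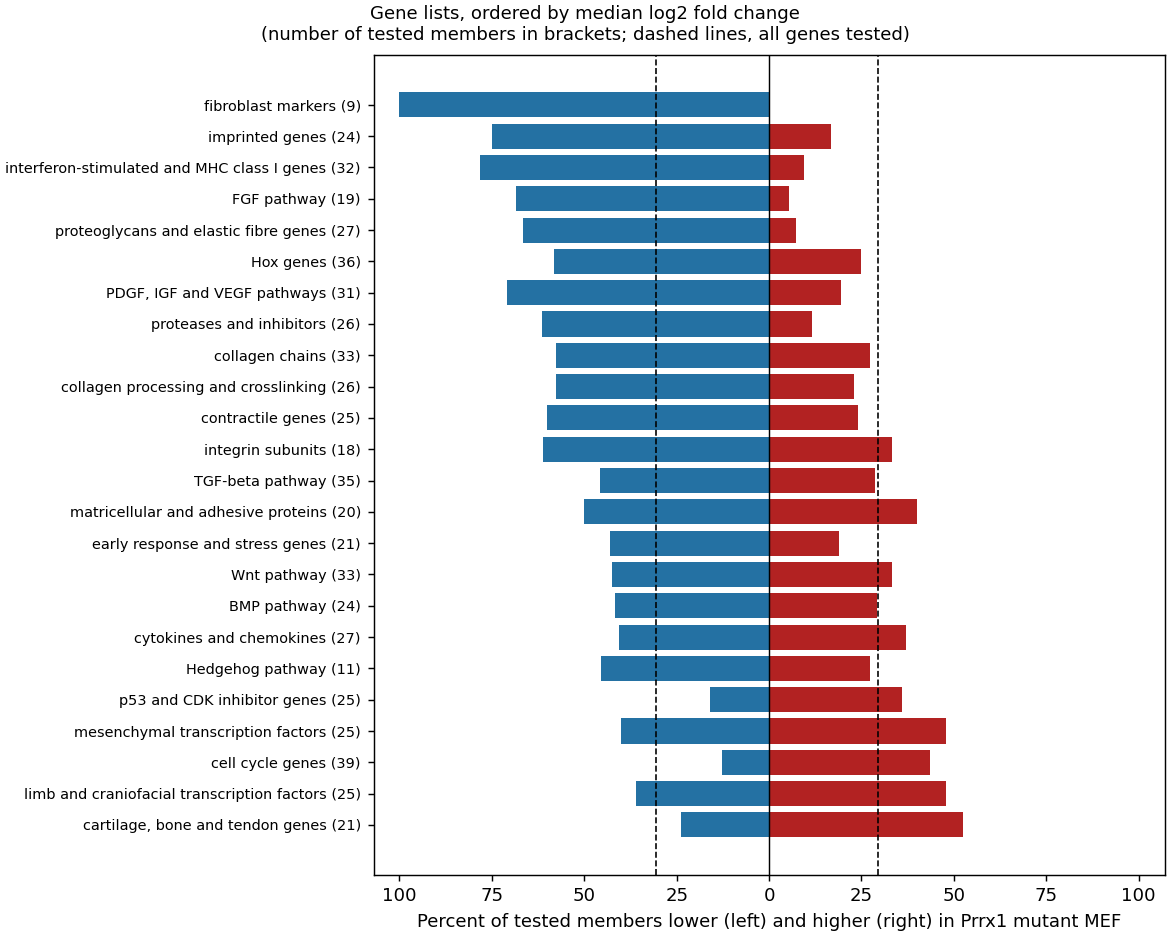
Percent of the tested members of each list that were lower (blue, left) and higher (red, right) in Prrx1 mutant MEF, for lists with at least 9 tested members, ordered by median log2 fold change, with dashed lines for all genes tested. Interferon-stimulated and MHC class I genes have 78.1% lower and 9.38% higher, and cell cycle genes 12.8% lower and 43.6% higher.

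Collagen chain genes were mostly lower, though several rose. Of 44 listed, 33 were tested, 19 fell and 9 rose, with a median log2 fold change of −0.52. Their summed level was 12361 to 12874 CPM in WT and 8872 to 8965 CPM in mutant cultures. Type I collagen, the main fibrillar collagen of connective tissue, changed unequally in its chains. Col1a1 went from 2901, 2966 and 3033 to 888, 980 and 1012 CPM (log2 fold change −1.63 ± 0.09, SE, adjusted p = 1.10e-05), and Col1a2 from 2421, 2393 and 2417 to 1746, 1810 and 1828 CPM (log2 fold change −0.43 ± 0.07, SE, adjusted p = 0.0023). Col3a1, the chain of type III collagen, fell from 1075, 1141 and 1344 to 334, 332 and 308 CPM. The basement membrane chain gene Col4a1 fell by 1.27 and Col4a2 by 1.78, the latter from 1158, 1163 and 1202 to 346, 338 and 343 CPM. Chains that rose included Col5a2, a regulator of fibril diameter, from 1464, 1479 and 1489 to 3022, 2987 and 2931 CPM (log2 fold change 1.01 ± 0.07, SE), and the fibril-associated Col12a1, from 176, 171 and 162 to 552, 550 and 552 CPM (log2 fold change 1.7 ± 0.07, SE). Of chains known from cartilage, Col11a1 rose from 21.6, 24.2 and 25.3 to 70.7, 59.5 and 54.4 CPM and Col2a1 from 1.07, 1.73 and 1.7 to 9.90, 9.85 and 8.74 CPM.

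Enzymes that modify, process and crosslink collagen fell in 15 and rose in 6 of 26 tested genes (27 listed, median −0.52). Lox, the lysyl oxidase that starts crosslinks, was at 738, 725 and 527 CPM in WT and 392, 243 and 358 CPM in mutant cultures (adjusted p = 0.00529), and Loxl2 fell from 69.9, 65.1 and 63.8 to 25.9, 27.4 and 32.3 CPM. The procollagen proteinases Tll1 and Adamts14 fell by 2.22 and 2.08 on the log2 scale. The prolyl hydroxylase gene P4ha3 fell by 1.47, and P3h2 rose by 1.44, from 13.4, 13.0 and 13.2 to 34.4, 37.6 and 35.7 CPM.

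Small leucine-rich proteoglycans and elastic fibre genes were lower in 18 and higher in 2 of 27 tested genes (29 listed, median −1.06). Dcn, decorin, which binds collagen fibrils and TGF-beta, nearly disappeared, from 43.4, 47.2 and 52.9 to 0.101, 0.227 and 0.0839 CPM (log2 fold change −8.39 ± 0.29, SE, adjusted p = 2.51e-06). The related Aspn fell from 26.2, 25.7 and 19.3 to 0.989, 0.853 and 0.769 CPM. Ltbp2, a fibrillin-binding protein, fell from 239, 226 and 201 to 3.08, 3.26 and 3.80 CPM (log2 fold change −6.04 ± 0.13, SE), Fbln7 by 6.37, and Fbln2, an abundant fibulin, from 2532, 2434 and 2008 to 540, 710 and 863 CPM. Fbn2, the fibrillin of embryonic microfibrils, was 1 of the 2 genes that rose, the other being Ltbp1. Fbn2 went from 2.09, 2.24 and 2.43 to 42.4, 52.1 and 56.0 CPM (log2 fold change 4.47 ± 0.15, SE).

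Matricellular and adhesive proteins were divided, with 10 lower and 8 higher of 20 tested (23 listed). Their median log2 fold change was −0.21 and was above 0, at 0.06 to 0.29, with no filter on low counts or without WT replicate 1, WT replicate 2, mutant replicate 1 or mutant replicate 3. Postn, periostin, fell from 301, 315 and 286 to 9.58, 8.07 and 8 CPM (log2 fold change −5.14 ± 0.11, SE, adjusted p = 1.17e-06). Thbs3, a thrombospondin, fell by 2.83, NOV (Ccn3) by 2.95 and the tenascin gene Tnxb by 2.37, and Sparc, which chaperones collagen, fell from 1425, 1505 and 1316 to 401, 540 and 631 CPM. Smoc2, a SPARC-related modular protein, rose from 30.9, 31.3 and 28.1 to 111, 123 and 128 CPM. Fibronectin, Fn1, rose from 3753, 3648 and 3186 to 4416, 5064 and 5584 CPM (log2 fold change 0.51 ± 0.12, SE, adjusted p = 0.00874).

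**Figure D4:**
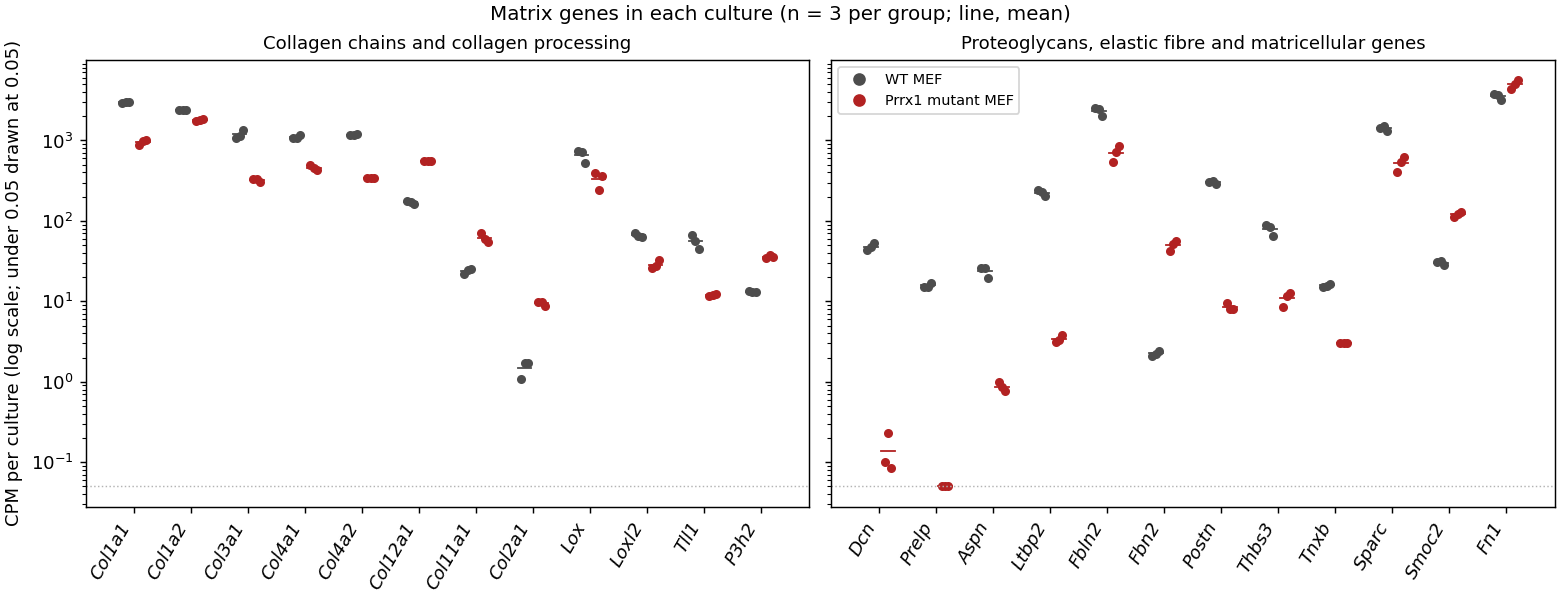
CPM of matrix genes on a log scale in each culture, with WT MEF in grey and Prrx1 mutant MEF in red, points for the 3 cultures per group, lines for means, and values under 0.05 drawn at 0.05. Dcn falls from between 43.4 and 52.9 CPM to at most 0.227 CPM, Col1a2 changes little on this scale, and Col12a1, Col11a1, Col2a1, P3h2, Fbn2, Smoc2 and Fn1 are higher in each mutant culture.

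Of the contractile genes, 15 fell and 6 rose among 25 tested (26 listed, median −0.46). Acta2, smooth muscle actin and the usual marker of myofibroblasts, went from 4563, 4391 and 3512 to 1543, 2077 and 2429 CPM (log2 fold change −1.04 ± 0.18, SE, adjusted p = 0.00265). Actg2, whose sequence is close to that of Acta2 so that reads may be divided between them, fell by 3.31. Mylk, the myosin light chain kinase, fell from 17.8, 14.8 and 14.2 to 2.45, 2.15 and 2.64 CPM, and Lmod1 by 2.62. Tropomyosins differed in direction, as Tpm1 rose from 424, 463 and 648 to 1329, 1038 and 975 CPM and Tpm2 fell by 0.88. The actin-binding Tagln fell from 655, 714 and 764 to 351, 413 and 441 CPM.

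Integrin subunits, the receptors for matrix, were lower in 11 and higher in 6 of 18 tested genes (20 listed, median −0.37). Itga6, a laminin receptor subunit, fell from 56.2, 60.6 and 62.5 to 14, 11.6 and 9.77 CPM, and Itgb7 by 5.28. Itgb5, a vitronectin receptor subunit, rose from 163, 153 and 149 to 338, 379 and 417 CPM (log2 fold change 1.29 ± 0.10, SE), and Itgb8, which binds latent TGF-beta, rose by 3.06. Matrix proteases and their inhibitors fell in 16 and rose in 3 of 26 tested genes (31 listed, median −0.86). Mmp2, a gelatinase, went from 322, 348 and 369 to 77.7, 84.6 and 89.9 CPM (log2 fold change −2.04 ± 0.09, SE), and Mmp23 from 67.5, 57.5 and 49.2 to 2.69, 2.93 and 2.49 CPM. The aggrecanases Adamts4 and Adamts5 fell by 3.15 and 1.49, and Mmp28 fell by 2.73.

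The TGF-beta pathway, which drives matrix synthesis in fibroblasts, had 16 lower and 10 higher of 35 tested genes (median −0.35). Among ligands, Tgfb2 rose from 7.49, 7.09 and 8.55 to 39.0, 31.2 and 29.2 CPM (log2 fold change 2.10 ± 0.14, SE, adjusted p = 3.31e-05), and Tgfb1 fell from 23.8, 28.2 and 32.6 to 20, 18.9 and 16.0 CPM. Of the receptors, the co-receptor Eng fell by 2.01 and the activin receptor gene Acvr1b by 1.33. Of the genes for follistatin proteins that capture activins, Fstl3 fell from 30.2, 30.3 and 27.5 to 1.83, 2.38 and 3.16 CPM and Fst by 1.29, while the follistatin-like gene Fstl1 rose by 0.48. The inhibitory Smad6 rose from 11.2, 11.6 and 12.3 to 31.7, 32.0 and 33.4 CPM. In the BMP pathway 10 genes fell and 7 rose of 24 tested (25 listed, median −0.07), and extracellular antagonists were among those that fell. Grem1, which restrains BMP signalling in the limb bud, fell from 336, 340 and 302 to 63.1, 72.8 and 80.5 CPM (log2 fold change −2.18 ± 0.11, SE, adjusted p = 1.01e-05), Chrd by 2.30 and Bmper by 1.57. Bmp6 fell by 3.66. Id3, a target of BMP signalling, rose from 65.8, 74.6 and 84.4 to 242, 229 and 216 CPM. For the related Id1 and Id2 the groups overlapped. Raw counts of Id1 were 9349, 8365 and 7691 in WT and 9299, 11879 and 11887 in mutant cultures. Those of Id2 were 2468, 2507 and 2762 in WT and 3009, 2986 and 2440 in mutant cultures.

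FGF pathway genes fell in 13 and rose in 1 of 19 tested genes (21 listed, median −1.17). Fgfr1, the main FGF receptor of mesenchyme, went from 620, 584 and 492 to 90.6, 102 and 122 CPM (log2 fold change −2.43 ± 0.14, SE, adjusted p = 1.79e-05). The ligands Fgf10 and Fgf7, both mesenchymal signals to epithelium, went opposite ways. Fgf10 fell from 70.7, 67.2 and 64.8 to 30.5, 28.6 and 25.9 CPM, and Fgf7, the gene that rose, went from 58.3, 60.7 and 57.6 to 204, 173 and 173 CPM. Feedback inhibitors that are induced by FGF signalling fell. Spry1 went from 13.0, 14.6 and 17.9 to 0.875, 1.31 and 0.671 CPM, Spry2 from 71.6, 68.9 and 60.5 to 16.3, 18.2 and 21.2 CPM, and the phosphatase gene Dusp4 fell by 2.22.

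For PDGF, IGF and VEGF genes, 22 fell and 6 rose of 31 tested (32 listed, median −0.93). Pdgfra, the receptor that marks mesenchymal progenitors, went from 148, 143 and 126 to 16.9, 19.3 and 19.3 CPM (log2 fold change −2.91 ± 0.10, SE, adjusted p = 2.51e-06), and Pdgfrb fell less, by 0.53. Flt1, a VEGF receptor, fell from 20.5, 21.3 and 21.1 to 0.114, 0.148 and 0.112 CPM. IGF-binding protein genes fell, Igfbp6 by 3.29 and Igfbp4 from 88.6, 80.8 and 83.8 to 13.5, 12.9 and 13.1 CPM, as did the ligand gene Igf1, by 2.92. Hgf, the ligand of Met, rose from 0.616, 0.665 and 0.549 to 49.1, 49.4 and 45.3 CPM (log2 fold change 6.30 ± 0.12, SE, adjusted p = 1.15e-06), and Angpt1, the ligand of Tek, from 1.78, 1.09 and 1.17 to 42.8, 31.6 and 18.8 CPM. In the last case the mutant cultures differed by more than 2-fold among themselves.

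Wnt pathway genes fell in 14 and rose in 11 of 33 tested (45 listed, median −0.08). The ligand gene Wnt5a, which extends the limb bud, fell from 47.5, 58.6 and 44.9 to 7.90, 6.53 and 8.14 CPM (log2 fold change −2.74 ± 0.15, SE, adjusted p = 1.13e-05), and Wnt10b rose from at most 0.157 to 12.9, 12.7 and 11.2 CPM. Modulators differed in direction. Sfrp2, a secreted Wnt-binding protein, rose from 17.8, 15 and 16.7 to 205, 195 and 201 CPM, Rspo2, which enhances Wnt signalling, from 6.21, 5.53 and 6.17 to 57.3, 58.9 and 58.5 CPM, and Rnf43, which removes Wnt receptors, from at most 0.226 to 14.3, 14.5 and 15.2 CPM, whereas Frzb, another secreted Wnt-binding protein, fell by 4.11 and Rspo3 by 1.80. Axin2, a target of beta-catenin, fell from 6.27, 6.4 and 6.17 to 0.811, 0.557 and 0.615 CPM. Lef1 and Nkd1, which are also induced by that route, fell by 3.99 and 5.19. Rnf43, given above, rose, and targets of the route were not tested as a set. Hedgehog genes numbered 11 tested of 14 listed, with 5 lower and 3 higher (median −0.02), and Boc, a co-receptor, fell from 33.7, 35.0 and 34.8 to 8.33, 8.86 and 10.7 CPM. The medians of the BMP, Wnt and Hedgehog lists lie near 0 and changed sign in 2 or 3 of the alternative analyses.

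Cartilage, bone and tendon genes rose in 11 and fell in 5 of 21 tested genes (30 listed), and their median log2 fold change of 0.71 became −0.28 when at least 10 counts in each culture were required, which removes genes that were near 0 in WT. Scx, the factor of tendon progenitors, rose from 8.03, 7.67 and 7.34 to 27.0, 26.5 and 27.8 CPM (log2 fold change 1.82 ± 0.08, SE, adjusted p = 6.83e-06). Sox6, a cofactor of cartilage differentiation, rose from 0.115, 0.0849 and 0.112 to 7.15, 6.10 and 5.83 CPM. Runx2, the factor of osteoblasts, rose from 14.9, 20.5 and 20.7 to 78.4, 42.6 and 50.8 CPM (log2 fold change 1.61 ± 0.25, SE). The tendon factor Mkx fell by 1.17, and Sox9 did not pass the test (log2 fold change 0.21, adjusted p = 0.0859).

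Interferon-stimulated and MHC class I genes fell in 25 and rose in 3 of 32 tested genes, with a median of −1.34. Ifit1, an antiviral RNA-binding protein, went from 79.8, 81.1 and 87.8 to 11.1, 9.96 and 9.69 CPM (log2 fold change −3.02 ± 0.09, SE, adjusted p = 1.80e-06), Oasl1 from 63.3, 68.3 and 74.1 to 5.26, 7.49 and 7.66 CPM and Oasl2 from 25.3, 27.3 and 33.1 to 3.17, 2.27 and 1.73 CPM. Rsad2, viperin, fell by 3.49 and the guanylate-binding protein gene Gbp2 by 3.09. The immunoproteasome subunit Psmb8 fell from 33.2, 31.6 and 29.9 to 6.35, 7.37 and 8.61 CPM. H2-K1 and H2-D1, which encode class I heavy chains, are alike in sequence and may share reads, and they fell by 1.51 and 1.32. B2m, their light chain, fell less, from 495, 540 and 624 to 413, 370 and 343 CPM. The 3 listed genes that rose were Oas1a, Ifit2 and Usp18, of which Usp18 (log2 fold change 0.39) lost its call when 1 of 4 cultures was left out. The interferon-inducible Ifi202b, given above among the higher genes with the largest change, is not a member of this list and rose as well.

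Cytokine and chemokine genes were evenly divided, with 11 lower and 10 higher of 27 tested (37 listed, median −0.03). Ccl5, a T cell chemoattractant that interferon also induces, fell from 118, 124 and 104 to 3.17, 4.39 and 5.2 CPM (log2 fold change −4.76 ± 0.20, SE). Cxcl10, also induced by interferon, fell from 102, 85.9 and 71.8 to 12.1, 12.5 and 14.4 CPM, and Ccl2, a monocyte chemoattractant, from 61.7, 62.6 and 61.1 to 8.83, 9.53 and 12.1 CPM. Of chemokines that attract neutrophils, Cxcl1 rose from 6.80, 7.97 and 6.73 to 65.7, 58.2 and 52.5 CPM (log2 fold change 3.04 ± 0.13, SE), and Cxcl5 is given above. Tnfrsf11b, osteoprotegerin, rose from 11.5, 10.4 and 8.34 to 34.2, 34.0 and 36.5 CPM, and the interleukin-1 receptor antagonist gene Il1rn by 3.46.

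Cell cycle genes rose more often than they fell, in 17 against 5 of 39 tested genes, by a small median of 0.22. Those called made up 56.4%, beside 59.9% of all genes tested, and those higher 43.6%, beside 29.4%. Mki67, the proliferation marker, went from 279, 304 and 326 to 619, 464 and 403 CPM (log2 fold change 0.71 ± 0.16, SE, adjusted p = 0.00818), Cdk1 from 141, 139 and 151 to 263, 237 and 195 CPM, and Ccne2, the cyclin of S-phase entry, from 17.0, 17.9 and 19.7 to 59.1, 37.0 and 28.4 CPM. Among D-type cyclins, which carry growth factor signals to the cycle, Ccnd1 fell from 672, 670 and 647 to 145, 155 and 169 CPM (log2 fold change −2.09 ± 0.09, SE, adjusted p = 4.47e-06), and Ccnd2 fell by 0.92, as did their partner kinase gene Cdk6 by 0.76. Ccnd3 did not pass the test (log2 fold change −0.32, adjusted p = 0.0819). Of 25 tested genes of the p53 response and of inhibitors of cyclin-dependent kinases, 4 fell and 9 rose (26 listed, median 0.18). Those called made up 52% of the tested members, beside 59.9% of all genes tested. Cdkn1c rose from 11.8, 14.2 and 14.2 to 35.0, 30.9 and 32.3 CPM and Cdkn1b by 1.23, while Cdkn2a, high in both groups, fell from 401, 376 and 370 to 185, 236 and 262 CPM. HPV E6 and E7, used to immortalise both groups, target the p53 and Rb proteins.

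Imprinted genes had a median of −1.62, with 18 lower and 4 higher of 24 tested (29 listed). H19, a non-coding RNA of growth control, fell from 90.7, 84.6 and 78.0 to 1.22, 1.85 and 0.853 CPM (log2 fold change −6.00 ± 0.28, SE, adjusted p = 6.87e-06), and the adjoining Igf2 from 2.49, 3.51 and 5.64 to 0.203, 0.250 and 0.154 CPM. Meg3 and Rian, non-coding RNAs of the Dlk1-Dio3 domain, fell from 31.2, 33.4 and 31.2 to 7.01, 6.55 and 4.95 CPM and from 203, 181 and 142 to 27.1, 30.8 and 34.3 CPM. Impact and Ndn fell by 2.15 and 1.88. Snrpn was among those that rose, from 0.515, 0.524 and 0.303 to 7.92, 9.85 and 8.75 CPM.

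Sex-linked genes showed Y transcripts in all 6 cultures. Kdm5d was at 11.6, 10.5 and 10.3 CPM in WT and at 0, 0.0341 and 0 CPM in mutant cultures (log2 fold change −9.58 ± 0.45, SE), whereas the other Y-linked genes tested rose. Eif2s3y went from 1.90, 2.09 and 2 to 13.4, 10.9 and 10.3 CPM, Usp9y from 0 counts to 2.45, 1.92 and 1.45 CPM, Uty rose by 0.63 and Ddx3y from 14.5, 15 and 17.0 to 23.4, 20.3 and 18.0 CPM. Xist, the RNA of the inactive X chromosome, did not exceed 0.0507 CPM in any culture. The calls of Uty and Ddx3y were lost when 1 of 3 and 1 of 4 cultures, respectively, was left out.

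Early response and stress genes fell in 9 and rose in 4 of 21 tested (median −0.18). The share called was 61.9%, near the 59.9% of all genes tested. Egr1 fell from 141, 131 and 125 to 62.1, 60.9 and 65.2 CPM, and Ddit3, a factor of the unfolded protein response, from 146, 133 and 86.5 to 24.7, 31.8 and 35.8 CPM. The heat shock genes Hspa1a and Hspa1b, nearly identical copies whose reads may be divided between them, fell by 2.08 and 1.54. Adipocyte markers were low, and the 3 tested of 5 rose. Of these, Pparg, the factor that drives adipogenesis, went from 2.65, 2.21 and 3.03 to 19.7, 19.2 and 18.3 CPM (log2 fold change 2.86 ± 0.14, SE, adjusted p = 7.56e-06). Of 5 mural cell markers 3 were tested, and 1 of them was called (33.3%, beside 59.9% of all genes tested). This was the proteoglycan gene Cspg4, which fell from 299, 277 and 245 to 81.2, 103 and 111 CPM.

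Whole chromosomes differed in their balance between mutant and WT MEF. The median log2 fold change over the 643 tested genes of chromosome 6 was 0.53, with 56.1% of them higher and 19.4% lower. For each culture the median of log2 CPM was set against the WT mean of the same genes, and on chromosome 6 the mutant cultures stood at 0.54, 0.54 and 0.51, while no WT culture differed from 0 by more than 0.01. Chromosomes 3 and 13 had medians of 0.36 and 0.37, and chromosome 16 of 0.21. At the other end, chromosome 18 was at −0.36, chromosome 17 at −0.32, chromosome 4 at −0.29, chromosome 12 at −0.28 and chromosome 2 at −0.21. The share of genes called lower on chromosome 17 was 44.9%, and of genes called higher 12.1%. HoxA lies on chromosome 6, with a median of 0.53, and HoxD on chromosome 2, with a median of −0.21. The part of these chromosome-wide differences in the gene results was not tested.

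**Figure D5:**
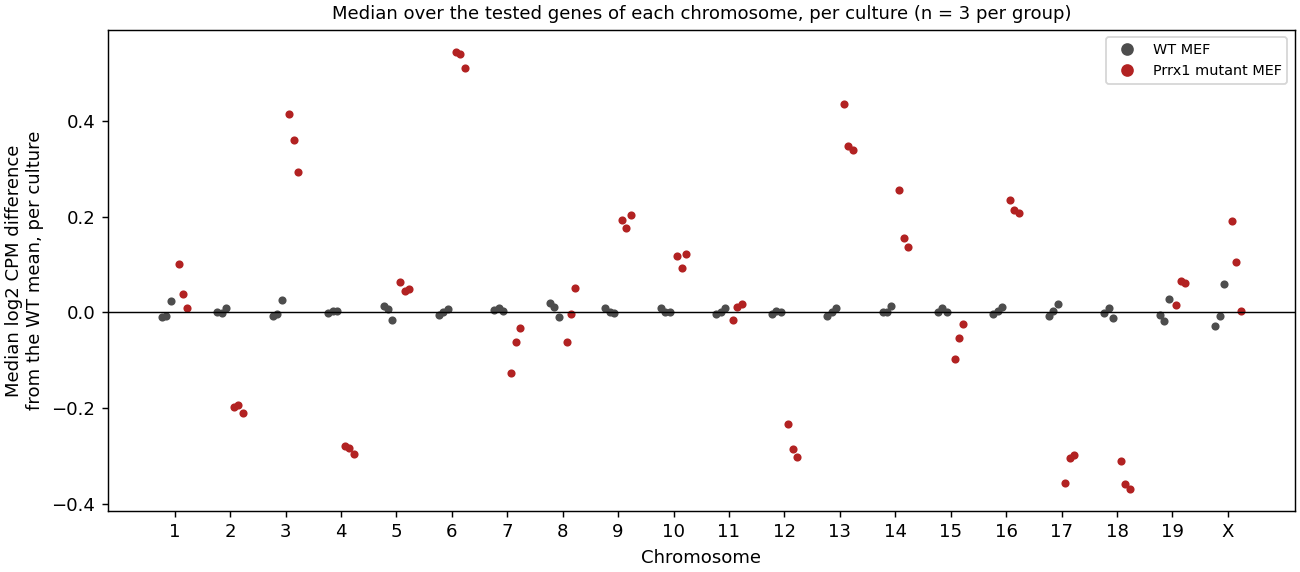
Median over the tested genes of each chromosome of the difference in log2 CPM from the WT mean, for each WT (grey) and Prrx1 mutant (red) culture. WT cultures lie within 0.06 of 0 on each autosome and on X, and the mutant cultures are highest on chromosome 6 at 0.51 to 0.54. Mutant replicates 2 and 3 are lowest on chromosome 18 at −0.36 and −0.37, and mutant replicate 1 is lowest on chromosome 17 at −0.36.

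Mutant MEF were last compared directly with the sgPrrx1 MEF, in which Prrx1 was targeted in culture, by a test that does not use the WT cultures. Of 13379 genes tested, 27.8% were lower in mutant MEF (3715) and 28.4% higher (3798). Prrx1 was itself lower in mutant than in sgPrrx1 MEF, by 2.44 on the log2 scale (adjusted p = 6.79e-05). Both comparisons use the same mutant cultures and so are not independent, and values are given side by side. Hoxd13 was higher in mutant than in sgPrrx1 MEF by 12.53, Pax9 by 7.19 and Tbx15 by 3.51 on the log2 scale, and Klf4 was lower by 3.5 and Meis1 by 2.23. Chromosome medians of this comparison were 0.63 for chromosome 6, 0.36 for chromosome 13, −0.32 for chromosome 17 and −0.48 for chromosome 18. Chromosomes 5 and 19 were both at 0.21, beside 0.06 and 0.05 in mutant against WT MEF. Other genes did not separate from sgPrrx1 MEF or went the other way. Pdgfra differed by 0.20 (SE 0.10, adjusted p = 0.0877) and Acta2 by 0.01 (adjusted p = 0.969), and their fold changes against the shared WT cultures, which do not make independent comparisons, were −2.91 and −1.04 in mutant and −3.11 and −1.05 in sgPrrx1 MEF. Col1a2 was lower in mutant than in WT MEF and higher than in sgPrrx1 MEF by 0.30 (adjusted p = 0.0095), Aspn was higher than in sgPrrx1 MEF by 1.54, and Irf7, the interferon-regulated factor, was lower than in WT by 1.94 and higher than in sgPrrx1 MEF by 1.43. Of the 29 collagen chain genes tested here, 8 were lower and 17 higher in mutant than in sgPrrx1 MEF, with Col11a1 higher by 8.13 and Col12a1 by 3.76.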

How the data were processed

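RNA was sequenced from 100 bp paired-end TruSeq libraries. The authors trimmed reads with Trimmomatic, aligned them to mm10 with STAR and deposited HTSeq counts per gene, with strand and mate settings not given in the sources used here. The study's methods also name a batch correction with ComBat-seq, after the steps for human cells, and do not say whether it was applied to the deposited MEF counts. The share of even counts among values from 1 to 20 was 51.3% to 60.1%, so counts halved and rounded up were tried as an alternative. Gene names in capitals were matched to RefSeq mouse symbols (GRCm38.p6, 23523 of 24532), and no mitochondrially encoded gene was listed.

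Cultures were grouped by their labelled genotype. Genes that passed filterByExpr were tested with edgeR 4.0.16 (quasi-likelihood, TMM) in R 4.3.3 in a model of the groups compared. DESeq2 1.42.0 was an alternative, beside other scalings, filters, thresholds, a replicate block, a model of all 9 MEF cultures and leaving out each culture. Named genes were Prrx1, Prrx2, the 15 lower and 15 higher called genes with the largest changes and at least 10 CPM in the higher group, list members and neighbours of Prrx1. The members and lists were chosen with earlier results of these data known. With 3 against 3 cultures an exact permutation test of 1 gene cannot go below p = 0.1. Standard errors come from the same quasi-likelihood fit and so hold the spread between these cultures, while the floors of 3 counts cover counting error only. Tables of wound and tumour fibroblasts were not used here. A few genes that this rule or a list holds are not reported here, though counts include them.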

Additional observations from a re-analysis of the deposited data

How the results depend on the processing

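Requiring a change of at least 2-fold left 1970 lower and 1313 higher genes in mutant against WT MEF, and 1419 lower and 1419 higher in mutant against sgPrrx1 MEF. Without 1 culture at a time the counts were 3453 to 4118 lower and 3162 to 4059 higher against WT, and 3076 to 3743 and 3096 to 3860 against sgPrrx1 MEF, and Prrx1 fell by 2.96 to 3.18 on the log2 scale. DESeq2 called 4364 lower and 4218 higher genes against WT. Replicate numbers did not pair the cultures (correlations of same-numbered deviations −0.14, −0.057 and −0.25), and with a replicate block 3360 genes were lower and 3097 higher against WT, 2682 and 2586 against sgPrrx1 MEF, and Prrx1 was at −3.05.

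Of 213 named genes tested, 5 lost their call somewhere. Vamp4 did so without WT replicate 1 or 2 (0.52 and 0.45) or mutant replicate 1 or 2 (0.38 and 0.53), Ddx3y without the same cultures (0.36, 0.38, 0.31 and 0.42), Uty without WT replicate 1 or 2 or mutant replicate 2 (0.56, 0.55 and 0.59), and Usp18 without WT replicate 2 or 3 or mutant replicate 2 or 3 (0.37, 0.33, 0.36 and 0.36). These 4 genes and Krt8 also lost it with the replicate block, and Usp18 with all 9 MEF cultures in the model. Kifap3, Scyl3 and Sele gained a call without WT replicate 3 (0.35), mutant replicate 3 (0.52) and WT replicate 1 (1.02), Ccnd3 without WT replicate 1 (−0.43), and Sox9 with library totals alone (0.30) or all 9 cultures (0.21). Genes that were not called changed sign near 0. Hoxd9 ranged from −0.047 to 0.31 and Prrc2c from −0.0064 to 0.059 without 1 culture at a time, and Twist2 was at 0.026 with library totals alone, and in each case the cause was not tested. Requiring 10 counts in every culture left no value for 48 named genes. The neural and glial list, of 2 tested genes, had a median of 6.27 and of −0.50 with that filter.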
